A study of Mus musculus with 4 samples.

Results

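Transcripts of the motile cilium were examined on arrays of mouse hippocampi dissected at postnatal day 2. The genes were chosen by symbol. They were axonemal dynein heavy chains (Dnah), dynein light chains (Dnal, Dynlrb), dynein assembly factors (Dnaaf), radial spoke genes (Rsph) and cilia and flagella associated genes (Cfap). Also taken were tektins (Tekt), nexin-dynein regulatory complex genes (Drc), and 13 single genes that regulate or build motile cilia. Among the 13, Mcidas had no named probe set, nor had the intermediate chain prefix Dnai. These symbols named 115 of 45037 probe sets and 69 of 18193 genes. The set was drawn up with earlier results of these arrays known, in which Deup1 stood near the top, so every difference between the labelled groups is a description of these genes and not a test of them. The series holds 2 arrays labelled ZBTB20 knockout and 2 labelled wild type littermate control. Zbtb20 encodes a zinc finger transcription factor, and the study sought its target genes in hippocampal development. The labels do not give strain, sex, allele or promoter, or whether an array held 1 animal or several, so the spread between arrays may be technical. Differences were taken within arrays of the same replicate number, as labelled knockout minus labelled control, where pair 1 means both arrays numbered 1 and pair 2 both arrays numbered 2. Each such value sets 1 array against 1 array and has no replicate check.

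The motile cilium is a beating organelle with a ring of doublet microtubules around a central pair. Outer and inner dynein arms on the doublets drive the beat, radial spokes and the nexin-dynein regulatory complex carry signals that shape it, and assembly factors fold the dyneins in the cytoplasm first. In the brain, motile cilia stand in tufts on ependymal cells, which line the ventricles and mature after birth, and on choroid plexus epithelium. Foxj1 and the Rfx factors drive the genes of the motile cilium, Mcidas starts the multiciliated state, and Deup1 builds the deuterosomes that multiply centrioles. Most other brain cells have a single primary cilium without motility.

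Rfx factors bind the X-box, a split palindrome in promoters of ciliary genes. RefSeq promoter windows (GRCm38.p6, 250 bases before to 50 after a transcription start) were held for 59 of the 69 genes, in 67 windows. Foxj1 and Rsph1 were not among them. In all, 7 letter patterns were searched on both strands. The letters GTNNCCNNGGNNAC, an X-box-like pattern, stood in 14.9% of the member windows and in 1.88% of all 32851 windows of the table. The shorter letters GTTGCC stood in 34.3% of member windows and in 12.5% of all windows, and 7 member windows held both patterns, which can overlap. Close variants of these gave 4.48% of member windows against 0.451% of all for GTTNCCNNGGNAAC, 20.9% against 6.27% for GTTNCCNNGG, 11.9% against 2.25% for GTTGCCNNGG and 1.49% (1 window) against 0.563% for GTTGCCATGG, each of which overlaps the others. The letters TGTTTAC, of the kind bound by forkhead factors such as Foxj1, stood in 7.46% (5 windows) against 3.65%. The first 2 patterns were picked for printing after all 7 had been searched, so their shares are no test, and a match is a stretch of letters, not a shown binding site. Stretches of 100 bases on the gene strand are given for 5 members picked because they held a pattern and crossed, a word used here for a signal higher on the labelled knockout array of pair 1 but lower on that of pair 2. The capitals mark GTNNCCNNGGNNAC in the first 4 and GTTGCC in Dynlrb2.
Deup1, chr9:15627877-15627976, minus strand: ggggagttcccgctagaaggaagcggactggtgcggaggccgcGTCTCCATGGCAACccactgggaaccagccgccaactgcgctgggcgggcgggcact
Cfap126, chr1:171122920-171123019, plus strand: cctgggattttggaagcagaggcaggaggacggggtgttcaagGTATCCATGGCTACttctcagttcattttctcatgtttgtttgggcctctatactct
Cfap206, chr4:34730173-34730272, minus strand: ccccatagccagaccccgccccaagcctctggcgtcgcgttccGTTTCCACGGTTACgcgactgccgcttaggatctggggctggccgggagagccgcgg
Tekt4, chr17:25471387-25471486, plus strand: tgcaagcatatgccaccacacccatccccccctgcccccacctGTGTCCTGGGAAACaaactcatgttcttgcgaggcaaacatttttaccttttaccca
Dynlrb2, chr8:116504917-116505016, plus strand: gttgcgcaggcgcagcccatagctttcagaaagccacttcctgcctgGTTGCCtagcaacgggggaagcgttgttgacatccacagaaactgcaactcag
The pattern began 87 bases before the annotated start of Deup1, 82 before that of Cfap126 (1 of its 3 windows), 23 before that of Cfap206, 160 before that of Tekt4 and 51 before that of Dynlrb2. The 69 genes lay on 19 chromosomes, with 11 on chromosome 11.

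The arrays of each pair had their own scale. The median signal was 129.9 on the labelled knockout and 142 on the labelled control array of pair 1, and 75.8 and 73.8 in pair 2. Neuronal genes were bright on every array (median at the 92.2 to 94.5 percentile of the array's probe sets), and so was Neurod6, a gene of cortical and hippocampal excitatory neurons, from the 97.8 percentile up. The targeted gene did not settle the labels. Of 9 Zbtb20 probe sets 3 were lower in the labelled knockout in pair 1, 2 in pair 2 and 0 in both. The same probe set had the widest difference in each pair, in opposite directions. It gave 2412 on the labelled knockout and 4939 on the labelled control array in pair 1, and 592 and 284 in pair 2. The place of the Zbtb20 probe sets relative to the deletion was not known here, so a probe set outside it checks nothing. Every direction below follows the labels. Liver transcripts were bright on the arrays of pair 1 and dim on those of pair 2: the albumin gene, Alb, gave 15195 on the labelled knockout and 39309 on the labelled control array in pair 1, against 45.2 and 42.2 in pair 2. Sex-linked transcripts also set the arrays apart. The Y-linked Eif2s3y gave 10.7 on the labelled knockout and 304.5 on the labelled control array in pair 1, and 830.1 and 714 in pair 2. Xist, which is made from the inactive X chromosome, gave 3009.6 and 1429 in pair 1, and 16.0 and 14.1 in pair 2 at the first of 3 probe sets. The arrays of pair 1 thus differed in sex-linked signal, its labelled control array held both transcripts, and the part of this in the values below was not tested.

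Foxj1, the master regulator of motile cilia, had a signal of 157 on the labelled knockout and 108.5 on the labelled control array in pair 1. In pair 2 it had 45.2 on the labelled knockout and 84.6 on the labelled control array. The array labelled knockout was thus the higher in pair 1 and the lower in pair 2, with differences of 0.42 and -0.59 on the log2(signal + 32.56) scale used throughout. Deup1, the deuterosome gene, had 281 against 13.3 in pair 1 (knockout against control labels) and 50.9 against 86.1 in pair 2. Its log2 differences were 2.77 and -0.51, and the control value of pair 1 lay at the 12.7 percentile of that array, among its dimmest probe sets. Quantile normalization widened these pair 2 differences by over 1.5 times, to -1.06 for Foxj1 and -0.92 for Deup1. The Rfx factors were mixed. The brightest Rfx3 probe set (1437375_at) had 499 against 464 in pair 1 and 696 against 552 in pair 2, higher in the labelled knockout in both. Of 4 Rfx2 probe sets only 1442578_at passed the filter on mean signal, with differences of -0.13 in pair 1 (0.03 with quantile normalization) and 0.15 in pair 2. Below the filter, Rfx2 1417332_at crossed, with 61.6 against 18.8 in pair 1 and 75.8 against 89.9 in pair 2 (0.87 and -0.18). The other dim probe sets were at 0.23 and 0.04 (Rfx2 1433415_at), -0.70 and -0.13 (Rfx2 1433416_at) and -1.34 and 0.06 (Rfx3 1425413_at).

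**Figure D1:**
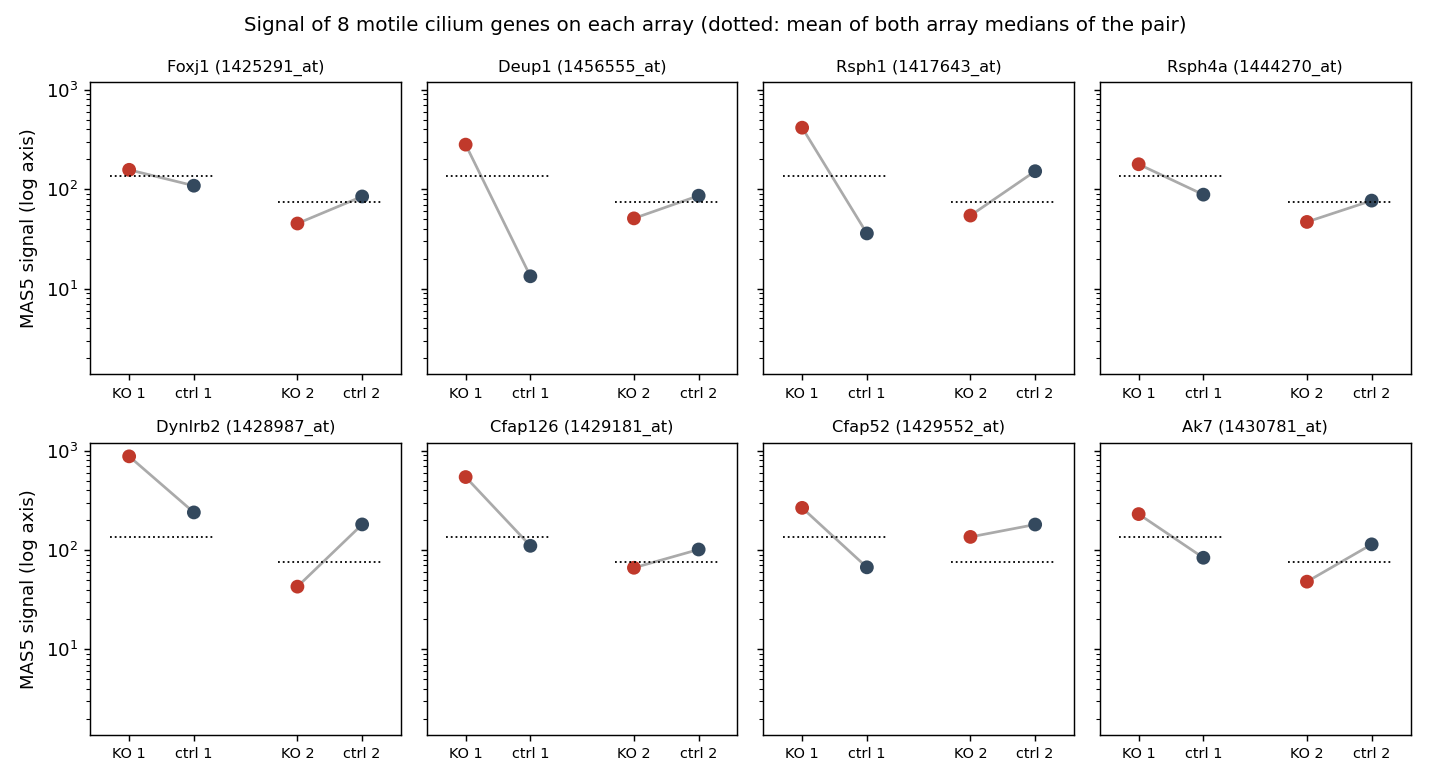
MAS5 signal on a log axis for 8 motile cilium genes, 1 point per array, with the labelled knockout (KO, red) left of the labelled control (ctrl, dark) in pair 1 and in pair 2 and a dotted line at the mean of both array medians. The 8 genes were picked with their values in view and all crossed, while 25 of the 51 kept motile cilium probe sets did. In each of the 8 the labelled knockout is the higher array in pair 1 and the lower array in pair 2, as for Rsph1 with 416 against 35.9 and 54.3 against 152.

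Of the 4 kept radial spoke probe sets 3 crossed (23.3% of all kept probe sets did), those of Rsph1, Rsph4a and, nearly level in both pairs, Rsph3a. Rsph1, a protein of the spoke head, had 416 on the labelled knockout and 35.9 on the labelled control array in pair 1, and 54.3 and 152 in pair 2. These are ratios of 11.6 and 0.358 and log2 differences of 2.71 and -1.09. Its difference lay at the 99.99 percentile of all kept probe sets in pair 1 and at the 0.222 percentile in pair 2. Rsph4a, also of the spoke head, had 178 against 88.2 and 46.9 against 76.8, with log2 differences of 0.80 and -0.46. With quantile normalization the pair 2 difference of Rsph1 was -1.88. Rsph9, another spoke head gene, differed in pair 2 (248 against 352, log2 -0.45) and was nearly level in pair 1 (1195 against 1238, log2 -0.05). Rsph3a, a protein of the spoke stalk, was nearly level in both pairs (0.05 and -0.01, the second turning to 0.0031 with 1 trimmed mean). Below the filter, Rsph6a, a further spoke head gene, did the reverse of crossing, with 29.5 against 63.0 and 34.1 against 30.0 (-0.62 and 0.09).

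The dynein light chain Dynlrb2 had the widest pair 2 difference of the set. Its signal was 876 on the labelled knockout and 239 on the labelled control array in pair 1. In pair 2 it was 42.8 on the labelled knockout and 181 on the labelled control array. The log2 differences were 1.74 and -1.50 (-2.51 with quantile normalization), at the 99.8 and the 0.0444 percentile of all kept probe sets. Dynlrb1, the paralogous roadblock light chain of cytoplasmic dynein found in most cells, had 11066 against 12366 and 1451 against 2211. It was lower in the labelled knockout in both pairs (-0.16 and -0.60), so the paralogs differed in direction in pair 1 and shared it in pair 2. The probe set of Dynlrb1 has the suffix by which the manufacturer marks probe sets that can match several transcripts. Dnal1, a light chain of the outer arm, differed by 0.52 and -0.12 at its kept probe set and by -0.22 and -0.07 and by 1.12 and -0.07 at those below the filter, and Dnal4 by -0.74 and 0.05.

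Among the heavy chains, the motors themselves, 5 of 14 probe sets passed the filter. Dnah9, an outer arm heavy chain, had 289 against 113 in pair 1 and 149.6 against 164 in pair 2 (log2 1.14 and -0.11), while its probe set below the filter was at -0.23 and 0.16. Dnah11, another outer arm chain, went the other way in pair 1, at 68.3 against 118, and had 109 against 116 in pair 2. The inner arm chains Dnah1, Dnah6 and Dnah7a lay between -0.36 and 0.06 in pair 1 and between -0.18 and 0.06 in pair 2. The kept heavy chain probe sets thus lay on either side of zero in pair 1 and had no pair 2 difference beyond 0.18. Below the filter, Dnah2 1438763_at was at 0.02 and -0.28, and Dnah8 1425692_a_at at 0.10 and 0.19. Dnah5, an outer arm chain, did not pass the filter (11.8 against 79.7, and 78.1 against 69.6).

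The kept probe sets of the Dnaaf assembly factors were lower in the labelled knockout in pair 1. Zmynd10, an assembly factor outside the symbol rule, went the other way there, at 1.70. All 6 kept probe sets of Dnaaf1, Dnaaf2, Dnaaf4 and Dnaaf5 lay below zero in pair 1, with a median log2 of -0.50 and a range of -1.16 to -0.24 (52.1% of all kept probe sets lay below zero in pair 1). Of the 5 assembly factor probe sets below the filter 3 lay above zero in pair 1, Dnaaf6 at 0.75 and Dnaaf5 at 0.43 (1437970_at) and 0.03 (1447646_at). Dnaaf2, which acts in cytoplasmic preassembly of dynein arms, had 211 against 381 at 1453183_at and 127 against 207 at 1454968_at. In pair 2 the same probe sets had 117 against 126 and 128 against 131, and the 6 assembly factor probe sets lay between -0.21 and 0.01. The probe set farthest from zero, Dnaaf4 1459965_at, was dim on the labelled knockout array (32.8 against 113.8), while the other Dnaaf4 probe set had 120.3 against 171.

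The Cfap genes split. Cfap126 (Flattop), a protein of the basal body and axoneme, had 542 on the labelled knockout and 110.1 on the labelled control array in pair 1, and 66.2 and 101 in pair 2 (log2 2.01 and -0.44). Cfap52, a protein inside the doublet microtubules, had 265 against 66.9 and 135 against 180.3 (1.58 and -0.34). Its second probe set, below the filter, went the same ways, with 108 against 7.1 and 26.9 against 45.0. Cfap206 had 114 against 71.2 and 38.0 against 72.0 (0.50 and -0.57). In contrast, the kept probe sets of Cfap20, Cfap36 and Cfap97, the brightest of which had signals from 904 to 2929 in pair 1, lay between -0.17 and 0.10 there and between -0.23 and -0.01 in pair 2. Of 21 kept Cfap probe sets 11 crossed (23.3% of all kept probe sets did), and the medians were 0.03 and -0.14. Cfap298, Cfap410 and Cfap97 each had kept probe sets of opposite sign in pair 1.

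Further axonemal genes with the crossing were Drc3, Tekt1 and Ak7. Drc3, a subunit of the nexin-dynein regulatory complex, had 416 against 152 in pair 1 and 55.0 against 66.8 in pair 2 (1.28 and -0.18), and 0.75 and 0.08 at its probe set below the filter. Ak7, an axonemal adenylate kinase, had 229.7 against 83.5 and 48.0 against 114 (1.18 and -0.86, or -1.53 with quantile normalization). Tekt1, a filament protein of the doublets, had 215 against 107 and 53.2 against 67.0 (0.83 and -0.21). The kept probe sets of Ccdc39 and Ccdc40, which form the molecular ruler of the doublet repeat, were at -0.08 and 0.06, and at 0.40 and -0.11. Of the central apparatus genes only 1 of 12 probe sets passed the filter, Hydin 1460106_at, lower in the labelled knockout in both pairs (59.7 against 135, and 95.0 against 101). The other tektins were below the filter. Tekt4 had 153 against 27.8 and 22.2 against 42.7, whereas Tekt3 had 6.1 against 122 and 36.4 against 35.4, lower in the labelled knockout in pair 1. Tekt2 was at -0.19 in both pairs, and Tekt5 at -0.93 and 0.09.

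**Figure D2:**
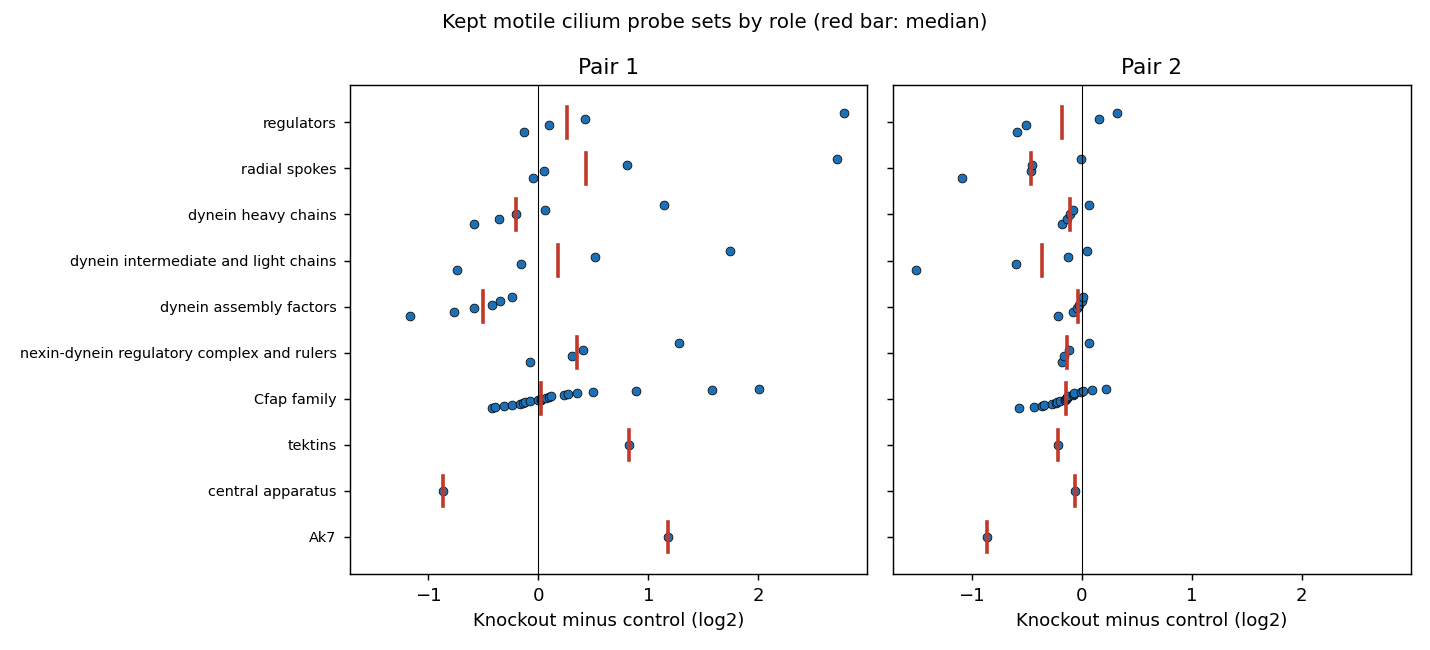
Difference of each kept motile cilium probe set (log2, labelled knockout minus labelled control) by role, pair 1 left and pair 2 right on the same axis, with a red bar at the median. The role labelled dynein intermediate and light chains holds light chains only. The Dnaaf assembly factors lie below zero in pair 1 at a median of -0.50, and Rsph1 and Deup1 lie above 2.7.

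Of the 115 probe sets 51, of 44 genes, had a mean log2 signal above the 40th percentile of the table and were kept. Nearest the limit were Dnaaf4 1459965_at and Cfap45 inside it and Dnah2 1438763_at and Rfx3 1425413_at outside it. In pair 1, 8 kept members were over 2-fold higher in the labelled knockout (1.68% of all 27022 kept probe sets were) and 1 over 2-fold lower (2.69% of all). In pair 2, 2 were over 2-fold lower (0.27% of all), namely Dynlrb2 and Rsph1, and 0 over 2-fold higher (0.248% of all). Of the 51, 25 crossed (23.3% of all kept probe sets did), 8 had the reverse signs (30.5% of all), 2 were higher in both (24.6%) and 16 lower in both (21.6%). The median of the members was 0.03 in pair 1 and -0.13 in pair 2, against -0.02 and 0.02 for all kept probe sets. Because a gene that is bright on only 1 array can pass a filter on the mean, these counts describe the kept probe sets. Over all 115 without a filter, 43 crossed (37.4%, against 20.9% of all 45037), and pair 2 was below zero for 78 (67.8%, against 43.6% of all).

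The differences of both pairs were set side by side over the kept members only, as a description. Over the 51 kept probe sets Pearson's r between pair 1 and pair 2 was -0.62 and Spearman's rho -0.52, against -0.21 and -0.14 over all kept probe sets. A gene bright on only 1 array can pass the filter, and no such coefficient was taken over all member probe sets without it. Probe sets share the arrays and are not independent replicates. By a criterion set after the values were seen, Foxj1, Deup1, Rsph1, Rsph4a, Cfap126 and Ak7 lay above the array median on the labelled knockout of pair 1 and on the labelled control of pair 2 and below it on the other arrays. That made 6 of 51 (0.485% of all kept probe sets), while the reverse held for 0 members (0.303% of all).

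**Figure D3:**
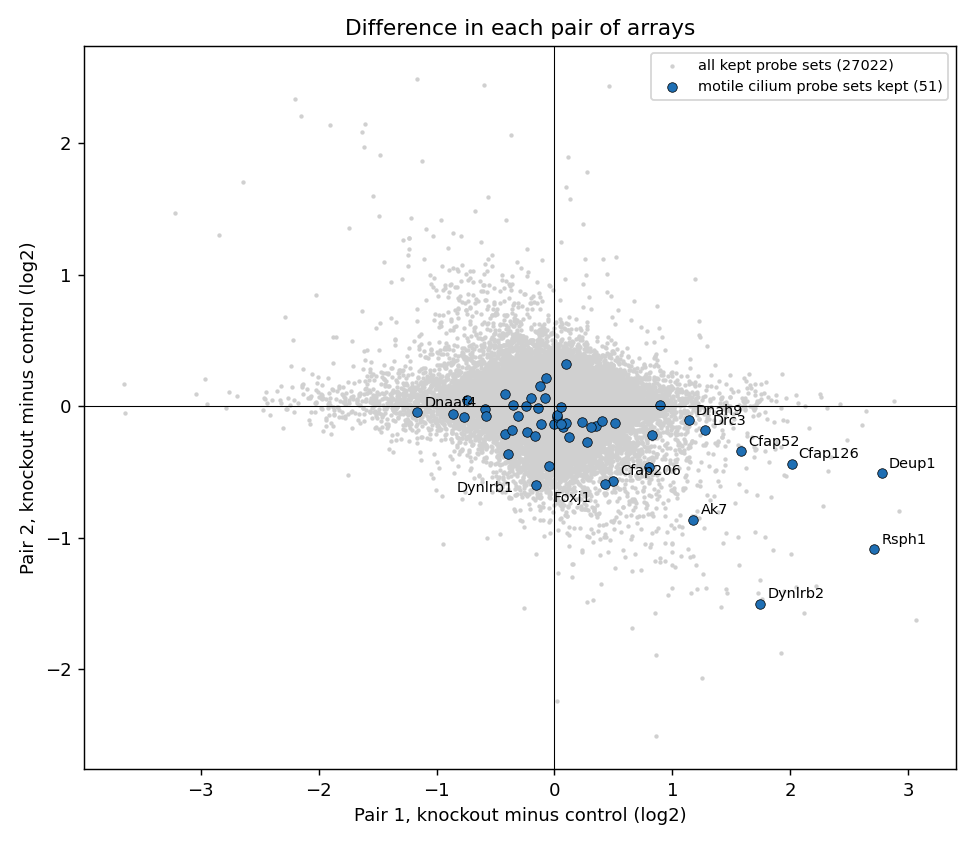
Difference of each kept probe set in pair 1 (horizontal axis) and pair 2 (vertical axis), log2 of labelled knockout minus labelled control, with 27022 probe sets in grey and the 51 kept motile cilium probe sets in blue. Rsph1, Dynlrb2 and Ak7 lie far into the lower right, where pair 1 is above and pair 2 below zero.

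Over all 4 arrays limma called 0 of 51 members at an adjusted p of 0.05 (0% of the 27022 kept probe sets called), and 0 members had an unadjusted p below that level (0.0185% of all). Blocking on the replicate number, limma again called 0 of 51 (0% of all), with 0 below an unadjusted 0.05 (1.22% of all). For 4 genes picked with their values in view, the fitted difference was 0.81 ± 0.82 for Rsph1, 0.79 ± 0.96 for Cfap126, 0.12 ± 1.16 for Dynlrb2 and -0.08 ± 0.70 for Foxj1 (SE, n = 2 per group). These averages lie between pair values of opposite sign. Each SE takes in the offset in scale between the replicate numbers, and was 1.73 for Cfap36, whose pair differences were 0.10 and -0.13. Without the block, this offset limited what limma could call. With the block the SE was 0.75 for Rsph1, 0.51 for Cfap126, 0.64 for Dynlrb2 and 0.32 for Foxj1. Without the labelled knockout array of replicate 1 the fitted differences of Rsph1, Cfap126 and Dynlrb2 were -0.37, -0.48 and -1.68, and without that of replicate 2 they were 2.00, 2.06 and 1.92. Foxj1 was at -0.73 and 0.56 in these fits, at 0.05 without the labelled control array of replicate 1 and at -0.22 without that of replicate 2. Without those same control arrays Rsph1 was at 0.10 and 1.53, and Dynlrb2 at 0.29 and -0.05. Each fit without 1 array sets a single array against a mean over both scales, so its value also takes in the offset.

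A list of other motile cilium and ependymal genes, none of them in the set, was measured beside it. Of its 49 kept probe sets 27 crossed (23.3% of all kept probe sets did), and 38 had a pair 2 value below zero (44.9% of all were). The medians were 0.19 and -0.14, and limma called 0 of 49. Tppp3, a tubulin-binding protein and one of its brightest genes, had 671 against 475 in pair 1 and 80.7 against 197 in pair 2. The centrin gene Cetn2, the nucleoside diphosphate kinase gene Nme7 and the centriole cap gene Ccp110 lay between -0.29 and 0.04 in pair 1 and between -0.20 and 0.19 in pair 2. The genes that follow were picked with their values in view. Dnali1, an inner arm light chain, had 209.5 against 49.5 and 29.8 against 61.3, Meig1 had 286 against 134 and 16.7 against 68.7, and Zmynd10, a dynein assembly factor, had 208 against 41.3 and 45.5 against 65.8. Crossing thus also stood in genes outside the symbol rule, but genes picked by their values are no test of how far it reached. Dnali1 shares the Dnal prefix and was outside only because a digit was required.

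Genes of intraflagellar transport and the primary cilium, which most cells have, were spread evenly. Of 59 kept probe sets 15 crossed (23.3% of all kept probe sets did) and 12 did the reverse (30.5% of all), with medians of 0.03 and -0.02. Kifap3, the accessory subunit of kinesin-2, had 6464 against 5791 and 1374 against 1315 at its brightest probe set, while its other one crossed, with 2030 against 1561 and 113 against 146 (1417181_a_at), and Kif3a, its motor, lay between 0.19 and 0.31 in pair 1 and between -0.39 and 0.09 in pair 2. The small GTPase gene Arl3 was at 0.29 and -0.54, and Ift46 at 0.11 and -0.04. Limma called 0 of 59.

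Most probe sets of choroid plexus genes, which mark the other source of motile cilia in this region, were higher in the labelled knockout in pair 2, where the members were lower. Of 13 kept probe sets 9 were higher in both pairs (24.6% of all kept probe sets were), with medians of 0.31 and 0.48. Every Ttr probe set was among the 9. Sostdc1 crossed at both of its probe sets, at 0.42 and -0.47 (1449340_at) and at 0.53 and -0.02 (1460250_at). Summed over the 18 probe sets of the list, signal was 180674 on the labelled knockout and 155904 on the labelled control array in pair 1, and 26772 and 9211 in pair 2. Ttr, the transthyretin gene, took most of it, with 74106 against 62551 and 9232 against 3505 at 1454608_x_at. Folr1, the folate receptor gene, had 705 against 360.2 and 114 against 69.0, while Otx2, the regulator of this epithelium, had 155 against 163.5 and 63.2 against 114.5. Ventricular zone and radial glia genes had medians of -0.18 and 0.09 over 24 kept probe sets, of which 2 crossed (23.3% of all did) and 11 did the reverse (30.5% of all). Its brightest genes were Fabp7, at 0.03 and -0.02, Cd24a, at 0.07 and 0.08 (1448182_a_at), and Vim, at -0.50 and 0.28 (1438118_x_at).

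Liver genes separated the pair 1 arrays and not those of pair 2. Their summed signal over 20 probe sets was 24016 on the labelled knockout and 77140 on the labelled control array in pair 1, and 707 and 697 in pair 2. All 14 kept probe sets were over 2-fold lower in the labelled knockout in pair 1 (median -2.07), and the pair 2 median was -0.0032. Neuronal genes had medians of 0.06 and -0.09. Of their 12 kept probe sets 7 crossed (23.3% of all kept probe sets did) and 4 did the reverse (30.5% of all). Those that crossed included Rbfox3 1436450_at (0.35 and -0.82) and Syt1 1433884_at (0.20 and -0.41), picked with their values in view. Snap25 did the reverse at both of its probe sets, at -0.33 and 0.46 (1416828_at) and at -0.38 and 0.34 (1447763_at). The brightest genes were Stmn2, at 0.09 and -0.08 (1423280_at), and Tubb3, at 0.36 and -0.04. Crossing was thus not confined to ciliary genes. Of the red blood cell genes 1 of 2 probe sets was kept, Alas2 of haem synthesis, with 123 against 157 and 44.8 against 63.0. Testis germ cell genes, whose flagella share most of the axonemal proteins, had 0 of 19 probe sets above the filter. The part of liver or choroid plexus RNA in the values of the motile cilium genes was not tested. The arrays measured whole tissue, so a difference in the number of ciliated cells and one in RNA per cell cannot be told apart, in either direction.

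**Figure D4:**
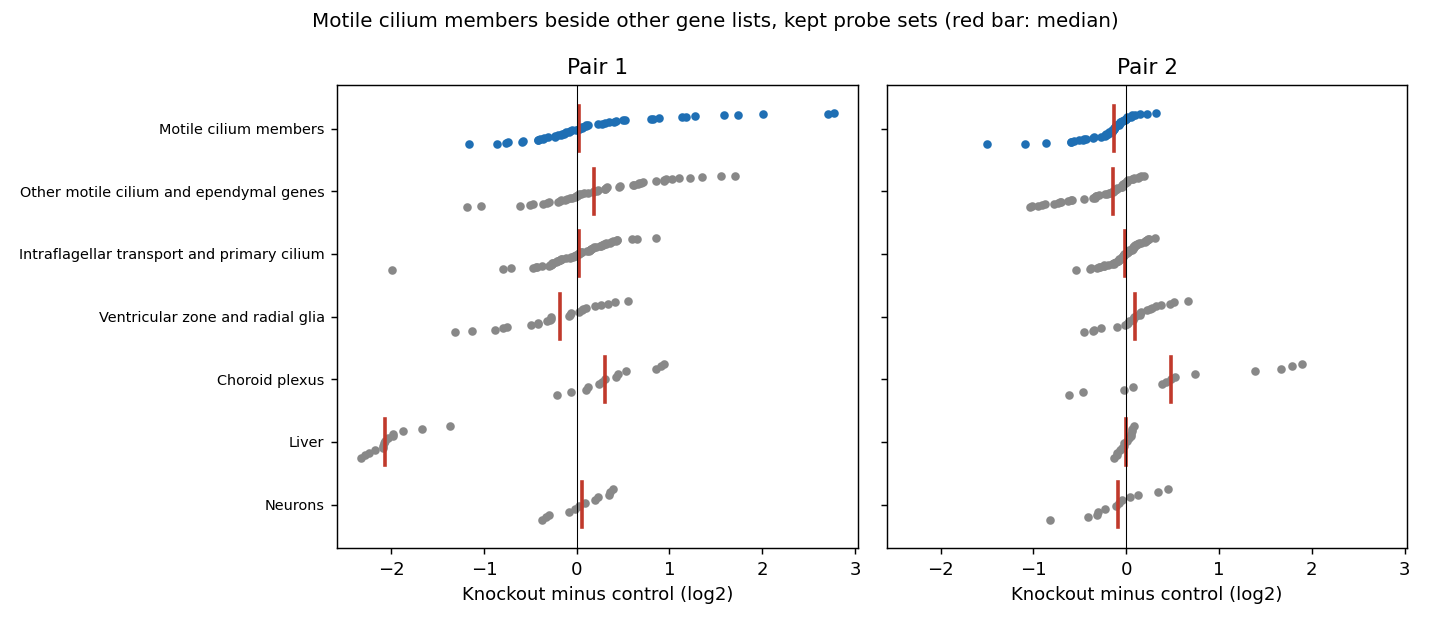
Differences of kept probe sets (log2, labelled knockout minus labelled control) of the motile cilium members in blue and of 6 other lists in grey, pair 1 left and pair 2 right on the same axis, with a red bar at the median. Liver genes lie at a median of -2.07 in pair 1, and choroid plexus genes at 0.48 in pair 2, where the members lie at -0.13.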

How the data were processed

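Total RNA was hybridised to Affymetrix arrays. What the authors deposited is 1 intensity per probe set and array, linear, from MAS5 (named in the submitters' processing notes, with no version). Scaling target and later steps are not given in the sources used here, and no detection calls were used. Probe sets were named by the platform annotation (34945 with 1 symbol, 932 with several, 9160 with none), and all 69 member genes matched RefSeq by Entrez ID. No probe positions or sequences were used. A digit was required after each family prefix, which left out Dnaic1, Dnaic2 and Dnali1.

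Signals were transformed as log2(signal + 32.56), the pseudocount being the 20th percentile of all values, so differences of dim genes are understated. Fold thresholds were applied to the transformed values. A probe set was kept where its mean log2 value exceeded the 40th percentile. limma 3.58.1 in R 4.3.3 (lmFit, eBayes with trend, knockout minus control, 4 arrays, no covariate, Benjamini-Hochberg at 0.05) was run over all 27022 kept probe sets. Its residual degrees of freedom were 2, and 1 with the block. A check on simulated data asked only that mean fitted differences lie near those put in, and does not bear on the count of calls. The number of arrays limits the precision. Replicate numbers are not said to mark litters; arrays sharing a number deviated together (r = 0.84 across kept probe sets), and since each scale held 1 array of each group, the block and values within pairs are given.

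The members and lists were chosen with earlier results of these data known. Named members were every probe set of the regulators, up to 4 of highest mean signal per role and up to 5 per direction with the widest difference in each pair, and up to 4 genes of highest mean signal per other list; any others were named after their values were seen. Alternatives covered normalization, pseudocount, filter, probe set choice, the symbol rule, eBayes settings, the block and leaving out each array.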

Additional observations from a re-analysis of the deposited data

How the results depend on the processing

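The count of members past limma's threshold was 0 under every alternative run, the replicate block (0) and each array left out included (0 to 0). The medians of both pairs moved by less than the spread between the pairs under each alternative that gave them, though the pair 1 median was -0.01 without a filter. Of 644 values of 92 named pair differences under 7 alternatives, 6 changed sign, all close to zero, and 20 moved by more than the spread between the pairs. Among named differences of at least 0.2, quantile normalization made 12 of 16 in pair 2 over 1.5 times larger and 7 of 33 in pair 1 over 1.5 times smaller, and a floor of 1 made 6 and 10 over 1.5 times larger. With quantile normalization the fitted difference of Rsph1 was 0.18 and that of Cfap126 0.47. The fitted difference of Dynlrb2 turned to -0.46 with quantile normalization, -0.014 with 1 trimmed mean and -0.10 with a floor of 1. Over fits without 1 array, which mix both scales, it ran from -1.68 to 1.92. The same fits gave -0.73 to 0.56 for Foxj1, -0.37 to 2.00 for Rsph1 and -0.48 to 2.06 for Cfap126. The counts of 25 crossed, 8 reversed, 2 higher in both and 16 lower in both became 43, 25, 12 and 35 without a filter (115 probe sets) and 10, 3, 1 and 8 with a filter at the 60th percentile (22 probe sets). Without a filter 37.4% of members crossed against 20.9% of all probe sets. At the 60th percentile 45.5% of members did against 25.7% of all. With quantile normalization 4 were reversed, and with centring on the 75th percentile 1 was higher in both. The count over 2-fold higher in pair 1 was 16 without a filter and 3 at the 60th percentile. The single member over 2-fold lower in pair 1 became 0 with quantile normalization, 1 trimmed mean, the higher pseudocount, the filter at the 60th percentile or 1 value per gene, 2 with a floor of 1 and 7 without a filter. The 2 over 2-fold lower in pair 2 became 4 with quantile normalization and 1 with the higher pseudocount or the filter at the 60th percentile. Shares over all probe sets were not computed under these alternatives for the 2-fold counts or for the splits other than crossing. Those counts show only how the members moved. A 1.5-fold threshold, chosen after seeing the data, gave 11 higher (6.25% of all kept probe sets) and 5 lower (8.99%) in pair 1, and 0 higher (1.07%) and 5 lower (1.69%) in pair 2. The causes were not tested. Signals near the 20th percentile of an array, as for Deup1 on the pair 1 control array, limit the precision of a fold.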
